A study of Mus musculus with 2 samples.

Results

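Sequencing after chromatin immunoprecipitation of RNA polymerase II (Pol II) gives reads from every place the enzyme occupies, and some of those places exist as copies in the genome. The loci described here are the stretches where nearly all reads matched the genome at exactly 2 sites. They were chosen from the reads themselves. A window of 500 bp on chromosomes 1 to 19 of mouse build mm8 was a member where each library had 20 or more 2-site reads and where the reads placed at 1 site were at most 10% of the 2-site reads. Intervals chr13:21500001-24000000 and chr3:96000001-96500000 were left out. Members closer than 10 kb were joined into tracts. This gave 496 windows in 243 tracts, out of 630356 windows with a 2-site read in either library and 995 windows with 20 or more 2-site reads in each.

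Both libraries came from mouse embryonic fibroblasts, connective tissue cells taken from embryos, grown in DMEM with 10% fetal bovine serum. The antibody was 8WG16, which binds the heptad repeats at the end of subunit Rpb1, mainly where they are not phosphorylated. The libraries form 1 group with no treatment, genotype or age in the labels, and no input library was analysed here. Sonicated chromatin averaged 500 bp, and adapter-ligated fragments amplified for 18 cycles were cut from a gel at 150 to 350 bp for library 1 and 150 to 300 bp for library 2. The labels name different flow cells for the libraries and do not say whether the cultures were separate, so each test below compares these libraries and covers counting error only. Library 1 held 17553310 distinct 1-site starts and 1005774 distinct 2-site starts, and library 2 held 10943719 and 526686. Levels are given as RPM, the reads with distinct start and strand per 1000000 distinct 1-site nuclear reads. The level of a tract counts the 2-site reads of its whole span, including windows that were not members.

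Genomes gain copies in several ways. A chromosome segment can be duplicated beside itself or elsewhere, in the same or the opposite orientation. The transcript of a gene can be reverse transcribed and inserted at a distant site without its introns, and pieces of the mitochondrial chromosome are found inserted in nuclear chromosomes. A short read from either copy matches both when the copies are identical or differ within the mismatches allowed, so such reads are usually discarded. The aligner used for these files allowed up to 2 mismatches, so the 2 sites of a read need not fit it equally well. It kept reads with at most 2 sites and listed each at both. The level at a tract is therefore the sum over both copies. Where both copies lie in the same tract each read is listed there 2 times, so the level of such a tract is 2 times that sum, and its value with each read counted once is given beside it. The profiles of the copies are the same reads printed again, not independent measurements.

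Most tracts were small. A single window made up 178 of the 243 tracts, 42 had 2 or 3 member windows and 23 had 4 or more. The 4 tracts with 10 or more windows held 124 of the 496 members. The spans added up to 382 kb, of which 248 kb was member windows. Chromosome 17 carried 28 tracts and 135 member windows, the most of any chromosome, followed by chromosome 2 with 22 tracts and chromosome 3 with 20. Member windows held 30331 listings of 2-site reads in library 1 and 31590 in library 2, which were 3.23% and 6.37% of the 2-site listings of these chromosomes. A read with both sites in members is counted at each. They held only 408 and 395 1-site reads, and 294 and 331 of the windows had none. Just inside the limit on reads lay 68 windows whose smaller count was 20 or 21, and just outside it lay 97 windows with 18 or 19. The larger 1-site share was 8 to 10% in 41 member windows, and 23 windows with enough 2-site reads were left out at a share above 10% and up to 12%.

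A copy could be placed for 229 of the 243 tracts (94.2%). Because a 2-site read is listed at both sites, the list of starts in a tract recurs at its copy with 1 fixed displacement, or mirrored with 1 fixed sum when the copy is inverted. A copy was accepted where runs of 5 consecutive starts that recurred elsewhere accounted for at least 50% of the starts of the tract in each library. The share accounted for had a median of 97.6% in library 1 and 99.6% in library 2. At the best placement alone the median was 92.0% and 90.9%, against 4.77% and 4.35% when the same list was displaced by 20 to 50 bp. Each library was matched without the other, and the best placement was identical in 219 of the 229 tracts and at the same locus in 228. Matched starts carried the same number of alignments at both copies in 99.2% of cases in library 1 and 99.7% in library 2, as averaged over tracts. Both libraries list each read at both sites of the same build, so correct placements must give such values. They check the matching only.

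The tracts fell into 5 kinds by where the copy lay. For 6 tracts it lay within the tract itself, for 75 it was another tract, for 8 it was on the mitochondrial chromosome, for 140 it was a locus outside the tracts, and for 14 no copy met the rule. The 6 tracts that held their own copy contained 112 of the 496 windows. They held 34.7% of the member listings in library 1 and 46.3% in library 2, and 3 of the 10 tracts with the highest mean level. Tracts with their copy outside numbered the most and were mostly single windows, with a median span of 500 bp.

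The highest mean level of the libraries belonged to chr17:14698001-14759000, a tract of 66 member windows over 61000 bp. Its level was 256 RPM in library 1 and 737 RPM in library 2 (mean 497 ± 340, SD, n = 2), or 128 and 369 RPM with each read counted once. Starts recurred within the tract in the same orientation at a displacement of 31375 bp and accounted for 99.5% and 99.95% of the list, so it was made of tandem copies. Each copy had the same profile of 2-site reads, as it must when the reads are shared. The signal was low from 2 to 12 kb from the left edge, rose to a peak at 17 kb, continued as a plateau to 28 kb and ended in a second peak at 29 kb. In the left copy the highest windows of these peaks had 15.6 and 6.21 RPM in library 1 and 21.2 and 23.8 RPM in library 2.

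The libraries differed in how the signal was spread along this tract. Between 2 and 12 kb of the left copy the mean per window was 0.795 RPM in library 1 and 1.30 RPM in library 2. In the peak from 16 to 18 kb it was 7.82 and 16.2 RPM, a ratio of 2.07. Over the plateau from 18 to 28 kb it was 2.24 and 9.09 RPM, a ratio of 4.07, and over the second peak it was 6.18 and 22.6 RPM, a ratio of 3.66. Library 1 thus had its highest windows in the first peak, while in library 2 the highest windows of both peaks were about equal. The highest window was 6.52 times the median member window in library 1 and 2.60 times in library 2. The segments were set after the profile was seen, and the difference between their ratios was not tested. In the 10 kb on each side, 1-site reads had a density of 0.670 and 0.781 RPM per kb, where the background of the libraries was 0.389 and 0.236. That background averages windows with a 1-site read in either library, while densities beside tracts also count windows without one. Beside this tract, 1 window passed the test for dense 1-site reads described further on in both libraries.

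**Figure D1:**
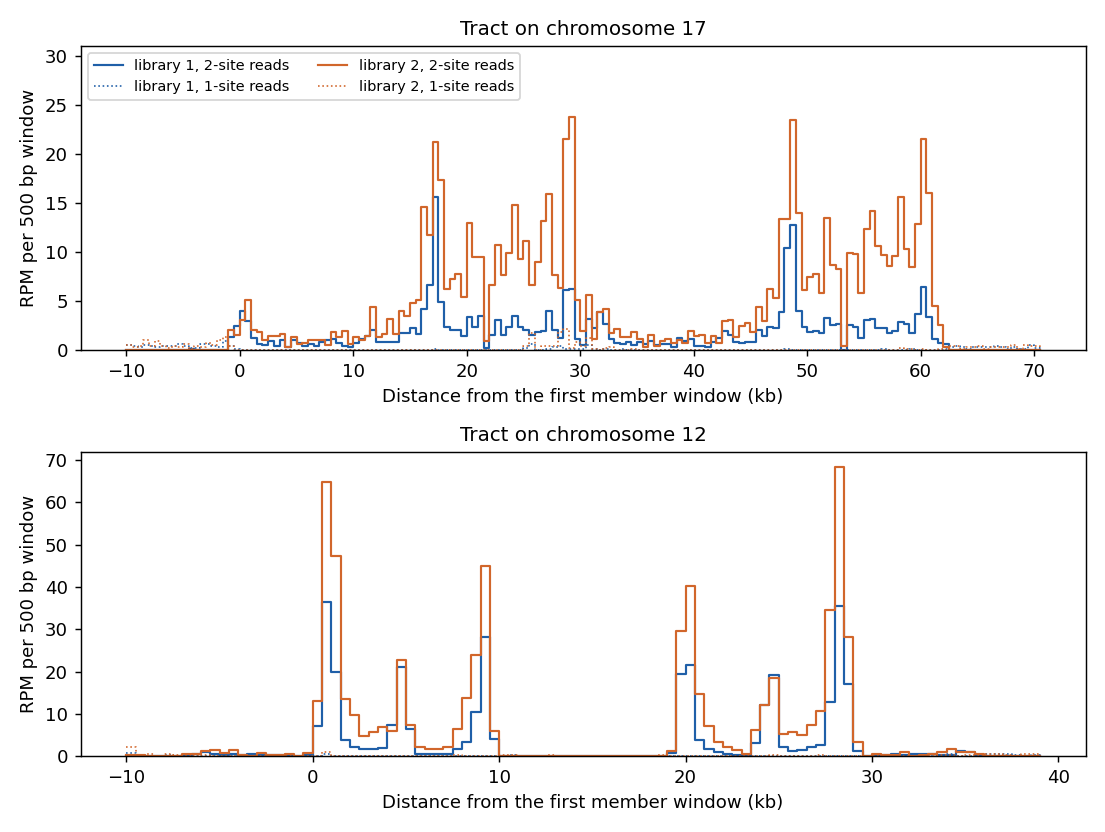
Profiles of the widest tracts, with distance from the first member window in kb on the horizontal axis and RPM per 500 bp window on the vertical axis, for 2-site reads (solid) and 1-site reads (dotted) in each library. In 2-site reads, the chromosome 17 tract repeats its profile after 31375 bp with peaks near 17 and 48.5 kb, and the chromosome 12 tract mirrors its profile with outer peaks at 0.5 and 28 kb.

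The second highest mean level was at chr12:55631501-55661000, with 321 RPM in library 1 and 611 RPM in library 2 (mean 466 ± 205, SD, n = 2), or 160 and 306 RPM with each read counted once. In library 1 it was higher than the chromosome 17 tract. With repeated starts kept, its mean was 906 RPM and that of the chromosome 17 tract 537 RPM, so the order of the pair turned. Its 32 member windows lay in blocks at the ends of the 29500 bp span, and the list of starts mirrored onto itself, accounting for 99.96% and 99.97% of the starts. The copies were therefore inverted and faced each other across a stretch from 10 to 19 kb that had almost no 2-site reads. Peaks lay 0.5, 4.5 and 9 kb from the left edge and, mirrored, 28, 24.5 and 20 kb from it. The outermost peaks had 36.5 and 35.4 RPM in library 1 and 64.9 and 68.5 RPM in library 2. The same start was seen repeatedly here. Repeated starts made up 55.0% and 50.2% of the alignments, against medians of 16.5% and 7.14% over all tracts. The highest window was 9.09 and 5.99 times the median member window, so the signal was concentrated in narrow peaks in both libraries.

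Smaller tracts also held their own copy, and their levels here count each listing. The tract chr3:96571501-96574500, with 44.2 and 47.9 RPM, and the tract chr3:96536001-96545500, with 22.3 and 25.8 RPM, were mirrored onto themselves. Both lie shortly beyond the end of the left-out interval chr3:96000001-96500000. Whether they belong to the same locus was not tested. In the same orientation, chr7:141489501-141491000 repeated at a displacement of 1026 bp with 10.4 and 23.2 RPM, and chr9:3009501-3013500 repeated at 3453 bp with 15.2 and 21.6 RPM. Library 2 was higher than library 1 in each of the 6, with ratios from 1.08 to 2.88, but the 95% interval of the ratio, with each read counted once, included 1 for the 2 tracts on chromosome 3.

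Tracts whose copy was another tract formed 37 mutual pairs, 26 on 1 chromosome and 11 on different chromosomes. Among the 75 tracts, 43 had their copy in the same orientation and 32 had it inverted. On 1 chromosome the copies were close, with a median distance of 142 kb, a lowest of 14.0 kb and a highest of 4423 kb, and 45 of 53 lay within 1 Mb. The strongest pair was inverted and lay on chromosome 17. It consisted of chr17:6363501-6374000, with 40.97 and 80.9 RPM, and chr17:6407501-6427000, with 53.2 and 93.2 RPM. The 1-site reads beside both were dense in both libraries, with 16 and 17 of up to 40 windows called in both.

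A direct pair on chromosome 3 had a different surrounding. The tracts chr3:88857001-88863000 and chr3:88917001-88923000 were displaced by 60015 bp. The first had 30.8 RPM in library 1 and 33.3 RPM in library 2, and the second had 30.5 and 32.8 RPM. Neither had a 1-site window called in both libraries within 10 kb. Several pairs lay inside longer copied stretches where 1-site reads were missing altogether. The pairs chr12:56042001-56043000 with chr12:56117001-56118500 and chr12:56073001-56073500 with chr12:56148001-56148500 had the same displacement of 75064 bp, and 3 of these 4 tracts had no 1-site read in the 10 kb on either side in either library. In all, 22 tracts had a 1-site read in fewer than 10 of the 40 windows beside them, and 20 of these had another tract as their copy. For such tracts the reads beside them could not say which copy lay near Pol II.

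Where unique sequence was near, it often differed between the copies. A 1-site window was called where its count passed an exact one-sided Poisson test against the background of its library at a Benjamini-Hochberg adjusted p of 0.01 or less. Over 4308660 windows, 3.41% were called in library 1, 9.02% in library 2 and 2.90% in both. Of the 37 pairs, 10 had a window called in both libraries within 10 kb of both tracts, 13 beside only 1 and 14 beside neither. With calls of library 2 alone these were 12, 16 and 9. Of the 11 pairs on different chromosomes, 7 had such calls beside only 1 tract, 3 beside both and 1 beside neither, and the denser side was the same in both libraries in 11 of 11.

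Individual pairs show how uneven the surroundings were. Beside chr2:75467001-75470000 the 1-site reads had 2.48 and 4.36 RPM per kb, and beside its copy chr4:12162501-12165500 they had 0.311 and 0.165. Beside chr14:19824501-19825000 the density was 2.98 and 7.27 RPM per kb, and beside its copy chr10:82016001-82017500 it was 0.231 and 0.0503. On 1 chromosome, chr10:126399501-126400000 had 2.33 and 3.93 RPM per kb beside it, and its copy 3417 kb away, chr10:129816501-129817000, had 0.111 and 0.0274. In these pairs 1 copy lay in a stretch of dense 1-site reads and the other had a density below the background of 0.389 and 0.236 RPM per kb. The density counts windows without a 1-site read and the background does not, so these values are not on the same footing. These pairs were picked for their uneven surroundings after their values were seen.

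For the 140 tracts with a copy outside the tracts, the reads beside the tract and beside the copy also differed. The copy lay on another chromosome for 103 and on the same chromosome for 37, where 27 were within 1 Mb. Same and inverted orientations were about equally frequent, at 74 and 66. The 1-site reads in the 10 kb on each side were denser beside the copy than beside the tract in both libraries for 119 of 140, and for 98 of the 103 with a copy on another chromosome. The median density was 0.281 and 0.160 RPM per kb beside the tract and 1.19 and 2.27 RPM per kb beside the copy. A window was called in both libraries beside the copy only for 96, beside both for 22, beside the tract only for 7 and beside neither for 15. This direction is tied to the choice of members. A copy with many 1-site reads of its own could not be a member, and 132 of the 140 copies had more than 10% 1-site reads in either library, with medians of 106 and 124 1-site reads per 100 2-site reads.

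**Figure D2:**
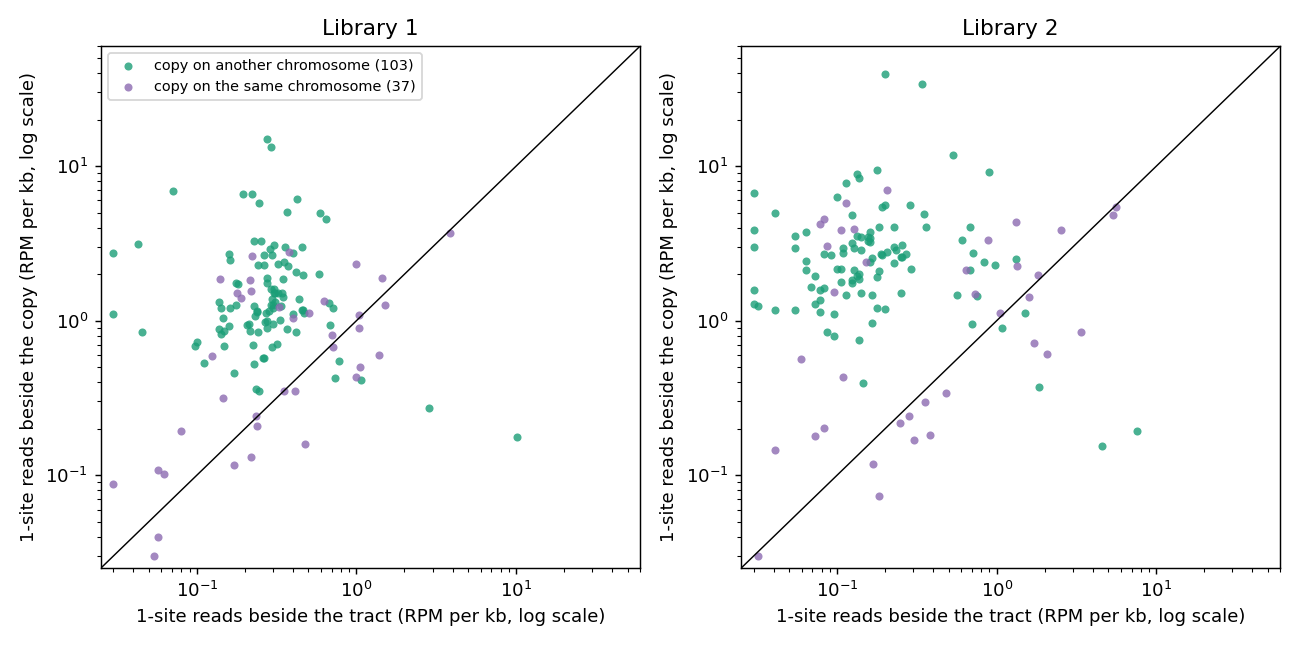
Density of 1-site reads in the 10 kb on each side of a tract (horizontal, RPM per kb, log scale) and of its copy outside the tracts (vertical, RPM per kb, log scale), 1 point per tract, 1 panel per library, with the line of equal density; values under 0.03 are drawn at 0.03. Most points with a copy on another chromosome lie above the line, and those with a copy on the same chromosome lie on both sides of it.

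Among copies on the same chromosome both orders were seen. The copy had the denser surroundings in both libraries for 21 of 37 and the tract had them for 14. Windows called in both libraries were beside the copy only for 11, beside both for 11, beside the tract only for 3 and beside neither for 12. Median densities were 0.328 and 0.283 RPM per kb beside the tract and 0.678 and 1.42 beside the copy. Whether same-chromosome and other-chromosome copies differ was not tested.

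The share of called windows fell with distance from the copy. In the window next to the copy, 64.3% of 263 windows were called in both libraries, against 41.2% of 272 at 2 kb, 23.7% of 257 at 5 kb, 18.7% of 257 at 10 kb and 11.4% of 254 at 20 kb. Beside the tract the share was flat, at 4.72% of 212 windows in the first and 4.57% of 219 at 10 kb. Over the full 10 kb on each side the share was 4.86% beside these tracts and 29.6% beside their copies, against 2.90% of all windows. Beside all 243 tracts it was 8.17%, with 19.98% for tracts paired with another tract, 17.9% for tracts holding their own copy, 0.216% for tracts with no copy placed and 0% for those with a mitochondrial copy.

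**Figure D3:**
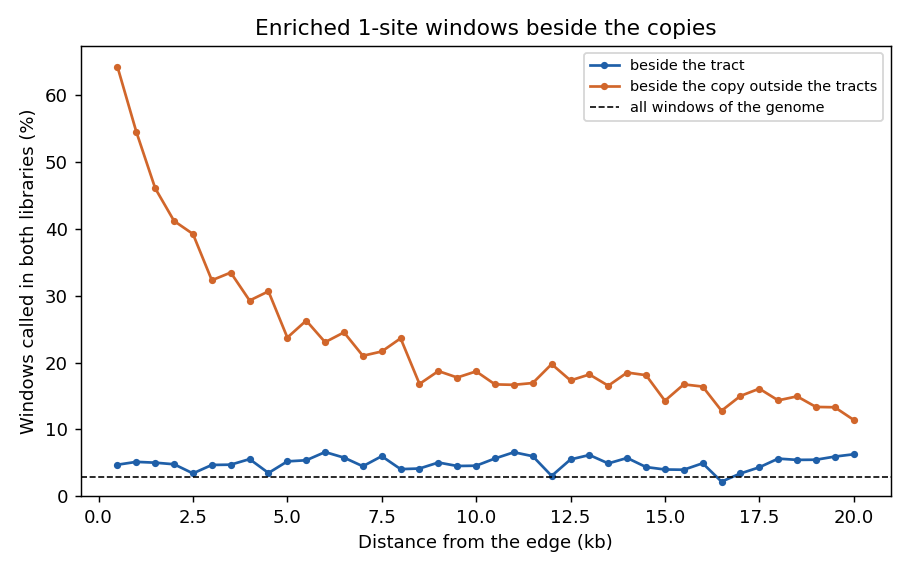
Share of 1-site windows called in both libraries (percent, vertical) at each distance from the edge (kb, horizontal) of the tracts with a copy outside the tracts and of those copies, with the share over all windows as a dashed line. Beside the copies the share falls from 64.3% in the first window to 11.4% at 20 kb, and beside the tracts it stays within a few percentage points of the dashed line.

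The highest total level of the 140 tracts was at chr5:33041001-33053000, with 91.6 RPM in library 1 and 85.5 RPM in library 2. Per kb it had 7.64 and 7.12 RPM, below the highest of the 140 at 25.5 and 36.4. Its 6 member windows held 540 of the 1608 2-site reads of its span in library 1 and 344 of 935 in library 2. Its inverted copy was placed at chr11:3030013-3042881, near the start of chromosome 11. The 1-site reads had 0.365 and 0.708 RPM per kb beside the tract and 5.04 and 2.73 RPM per kb beside the copy. The value beside the tract counts empty windows, since no window from 10 to 1 kb left of it held a read in either library. In both libraries 2 windows were called beside the tract and 20 beside the copy. A tract near that copy showed the opposite order. Beside chr11:3059001-3059500 the density was 10.1 and 4.59 RPM per kb, and beside its copy at chrX:108487638-108488188 it was 0.177 and 0.155. Another tract with the denser side was chr5:94258001-94258500, with 2.85 and 7.60 RPM per kb against 0.274 and 0.192 beside its copy on chromosome 6.

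Some tracts shared the neighbourhood of their copy with other tracts. There were 7 such neighbourhoods, where copies of different tracts started within 50 kb of each other, and they held the copies of 17 tracts. The tract chr5:30161501-30163000, with 14.3 and 35.0 RPM, and the tract chr4:50481001-50481500, with 3.19 and 11.1 RPM, both had their copy at about the same place, chr11:86400458-86401648 and chr11:86400068-86400280. Beside the latter the 1-site reads had 15.03 and 39.4 RPM per kb, while beside the tract on chromosome 4 they had 0.274 and 0.201. That was the highest density beside any of the 140 copies in both libraries. On chromosome 17 a single neighbourhood held the copies of 4 tracts on chromosomes 1, 4, 6 and 16. The strongest of the 4 was chr6:3150501-3151500, with 15.7 and 12.9 RPM. Its copy at chr17:39454734-39455519 had 6.86 and 2.94 RPM per kb of 1-site reads beside it, and the 4 tracts had library ratios from 0.760 to 0.978.

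In 7 of the 140 tracts the copy held extra sequence inside the matched stretch. These were tracts where both libraries placed the same step of 70 bp or more between collinear blocks, with no step of that size in the other direction. The steps ranged from 89 to 5139 bp. The longest belonged to chr3:70051001-70052500, where 1500 bp of tract matched the ends of chr5:28402176-28408695. At chr12:88865501-88867500 there were steps of 91 and 164 bp within the copy at chr2:180188416-180190160. The tracts chr13:74484501-74486000 and chr10:82384501-82385000 had steps of 175 and 162 bp within copies on chromosome 7 that overlapped at their ends. Those copies are not independent examples. Windows called in both libraries were beside the copy only in 6 of these 7 and beside both in 1. Calls beside the copy only were found for 96 of all 140 and for 85 of the 103 with a copy on another chromosome, the kind of 6 of these 7. The count is near that share and is not particular to tracts with steps, and the choice of members bears on it as above. The reverse, a step of 70 bp or more of extra sequence in the tract, was placed by both libraries in 1 tract. The surroundings of these 7 tracts had 0.291 and 0.183 RPM per kb and those of their copies 2.01 and 3.39. These were picked by their steps after the placements were known.

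The 8 tracts with a mitochondrial copy had few 1-site reads around them. They lay on chromosomes 1, 2, 4, 6, 10, 12 and 13, and together their copies covered 9087 of 16299 mitochondrial bases, 55.8%. The largest was chr1:24565501-24569500, with 114 RPM in library 1 and 108 RPM in library 2, an inverted copy of mitochondrial bases 7409 to 11044. Next were chr2:22440001-22442500, with 43.9 and 40.7 RPM, from bases 4440 to 6422, and chr4:79474501-79476500, with 33.3 and 26.9 RPM, from bases 13373 to 15359. Reads listed at such a tract come from the nuclear insertion, from the mitochondrial chromosome or from both. None of the 246 windows beside the 8 tracts was called in both libraries. This would allow a share of up to 1.22% if windows were independent, which neighbouring windows of 8 tracts cannot be taken to be. The 1-site density there was 0.229 and 0.125 RPM per kb, below the background, but it counts windows without a 1-site read and the background does not. The mitochondrial chromosome itself had 1-site reads at 15.2 and 14.3 RPM per kb and 2-site reads at 14.6 and 13.9 RPM per kb. These are averages over all its bases, of which the copies covered 55.8%, so the 2-site values are not densities over the copied bases alone. The 8 tracts had medians of 12.7 and 11.4 RPM per kb, and their starts filled up to 24.99% and 14.8% of all positions and strands.

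The 14 tracts with no copy were all weak. Each was named because the rule for copies failed in at least 1 library. They were single windows, except chr16:62659501-62661000, which had 2 member windows and the highest mean level of the 14, 3.76 and 6.76 RPM. The lowest mean was at chr16:76286001-76286500, with 1.42 and 1.83 RPM. The share of starts accounted for was 0% in both libraries only at chr4:86205001-86205500, which had 21 and 24 reads. It reached 80% in library 1 and 0% in library 2 at chr16:76286001-76286500, and 95.6% and 42.5% at chr5:79548501-79549000. In library 1 alone it was 0% at chr3:90212501-90213000, chr8:5639501-5640000 and chr13:75057501-75058000. In library 2 alone it was also 0% at chr1:144910501-144911000, chr10:43212501-43213000 and chr14:112196501-112197000. At chr2:50344001-50344500, chr6:17660001-17660500, chr13:77399001-77399500 and chr19:34674001-34674500 the share was between 38.5% and 87.9% in both, and at chr16:62659501-62661000 it was 54.5% and 47.3%. These tracts had 427 and 397 reads in all in their member windows. Some tracts with as few reads were placed, such as chr3:87681501-87682000, with 21 and 28 reads and 100% accounted for in both libraries. Whether the number of reads bears on the failed matching was not tested. The 14 tracts are not shown to lack a copy.

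Across all tracts the libraries ranked the levels alike but not closely. Over the 496 member windows the Pearson correlation of log2(RPM + 0.1) was 0.76 and the Spearman correlation 0.67. Over tracts, in RPM per kb, they were 0.76 and 0.64. Windows are not replicates, copies share reads and the windows share their libraries, so these are descriptions. Over all windows of the tract spans, members or not, the Pearson correlation was 0.90. Within tracts of 5 or more windows it was 0.90 over 32 windows at chr12:55631501-55661000 and 0.69 over 66 windows at chr17:14698001-14759000. It was near 0 over 5 windows at chr17:6267001-6275000, with 0.033, and chr18:43598001-43600500, with 0.015. For the 23 tracts with 4 or more windows, the highest window was divided by the median one. The median of this ratio over tracts was 1.69 in library 1 and 1.71 in library 2. The mean of these medians was 1.70 ± 0.01 (SD, n = 2 libraries), and the SD does not describe the spread of tracts. Single tracts ranged from 1.14 to 9.09 in library 1 and from 1.09 to 5.99 in library 2. Starts on the plus strand were 50.1% and 50.2%.

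**Figure D4:**
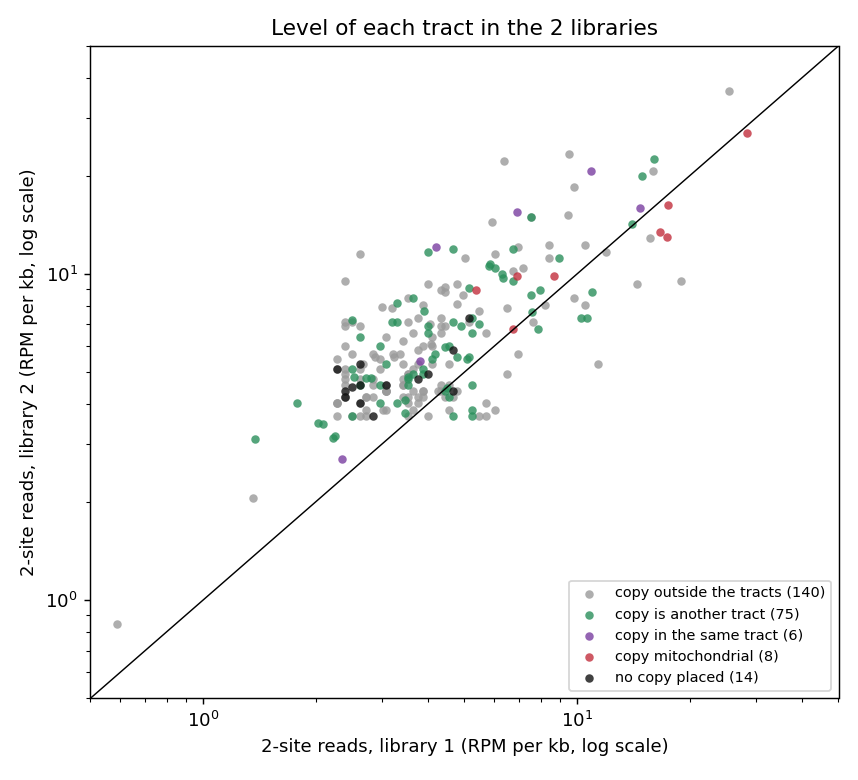
Level of each of the 243 tracts in library 1 (horizontal) and library 2 (vertical), in RPM of 2-site reads per kb on log scales, coloured by where the copy lay, with the line of equal levels. Most tracts lie above the line, and the tracts with a mitochondrial copy lie near it.

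Library 2 was higher than library 1 in RPM at 207 of 243 tracts. The tracts of the 37 mutual pairs share their reads, so each pair enters this count and the tract counts below 2 times. The median ratio was 1.45, with a range from 0.465 to 4.39. The exact 95% interval of the ratio, from the counts, lay above 1 for 100 tracts and below 1 for 5. The member rule bears on this, since 20 reads are 1.14 RPM in library 1 and 1.83 RPM in library 2, so a weak member needed more RPM in library 2. The ratio over all windows with 20 or more 2-site reads over both libraries, members or not, was 1.44. Median ratios were 1.66 for tracts holding their own copy, 1.399 for tracts paired with another tract, 1.52 for tracts with a copy outside, 1.51 for those with no copy and 0.977 for the mitochondrial ones.

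**Figure D5:**
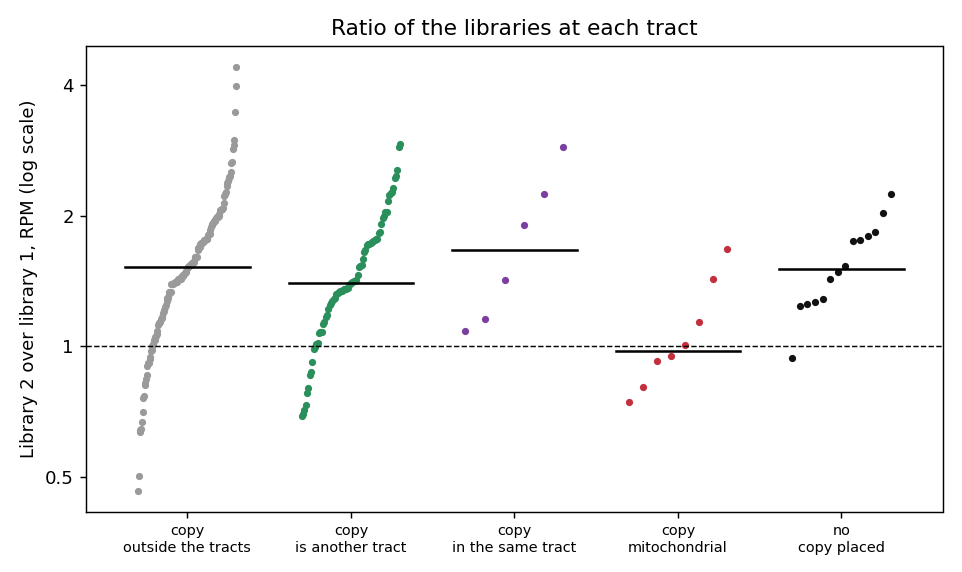
Ratio of library 2 to library 1 in RPM (log scale, vertical) for each tract, grouped by where the copy lay, with 1 point per tract, a bar at the median of each kind and a dashed line at 1. The median is 0.977 for tracts with a mitochondrial copy and at least 1.399 for the other kinds.

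Windows were then tested with the overall ratio removed. Each of the 4938 windows with 20 or more 2-site reads over both libraries was tested between the libraries (exact binomial test, two-sided, scaled to the 2-site reads in those windows) at a Benjamini-Hochberg adjusted p of 0.01 or less. Library 1 was higher in 171 windows (3.46%) and library 2 in 121 (2.45%), 5.91% in all. Among the 496 member windows the test called 27 for library 1 and 67 for library 2. These shares are larger than the background, but members were chosen by their counts in each library and have more reads than most windows tested, so nothing is read from the comparison. The direction depends on the scaling. With scaling by 1-site nuclear reads, as in RPM, the split was 50 windows for library 1 against 451 for library 2, and 3 against 149 among the members.

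The 67 member windows higher in library 2 lay in 8 tracts and the 27 higher in library 1 in 17. Of the 67, 43 were in chr17:14698001-14759000 and 18 in chr12:55631501-55661000, where the copies share their reads. The other 6 tracts had 1 window each. Of the 27 higher in library 1, 11 were in mitochondrial tracts, 5 of them in chr1:24565501-24569500, 3 in chr4:79474501-79476500, 2 in chr2:22440001-22442500 and 1 in chr10:95507001-95507500. Another 3 were in chr12:55631501-55661000, which thus had windows on both sides. Repeated starts were removed before counting, and the mitochondrial tracts had medians of 33.9% repeated starts in library 1 and 13.4% in library 2, against 16.5% and 7.14% over all tracts. The part of this in the difference was not tested.

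The highest and lowest ratios belonged to small tracts. At chr6:128859501-128860000 the counts were 23 and 63 reads, giving a ratio of 4.39 (95% interval 2.69 to 7.42). Its copy lay 289456 bp away in the same orientation, with 1.87 and 5.77 RPM per kb of 1-site reads beside it against 0.140 and 0.114 beside the tract. At chr3:146225001-146225500 the counts were 21 and 52, a ratio of 3.97 (2.35 to 6.94), and at chr4:50481001-50481500 they were 56 and 121, a ratio of 3.47 (2.50 to 4.85). At each of these 3 the density of 1-site reads beside the copy was also higher in library 2. This is not particular to them, since the median beside all 140 copies outside the tracts was 1.19 RPM per kb in library 1 and 2.27 in library 2. The lowest ratios were 0.465 (0.297 to 0.709) at chr19:11188001-11188500, with 100 and 29 reads, and 0.502 (0.361 to 0.690) at chr11:3059001-3059500, with 166 and 52 reads. Both intervals lay below 1. At chr11:58031001-58031500, with 53 and 21 reads, the ratio was 0.636 and its interval, 0.364 to 1.07, included 1. Among the widest tracts, chr14:49877501-49888500 had 14.9 and 22.7 RPM, only 3 member windows in 11000 bp and a copy displaced by 11635 bp, and starts accounted for were 71.0% and 79.8%.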

How the data were processed

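The deposited files list read positions in 2 sections, reads with 1 site and reads with 2 sites, each as a signed offset on mm8. Per the file headers they were made with bowtie (-e 70 -k 2 -m 2 -n 2 -l 36 --best). No unit or normalization was applied by the authors. No source used here gives the version of the aligner. From these lists, 1 read per start and strand was kept, shifted by 60 bp and counted in 500 bp windows with Python 3 and SciPy. Levels are RPM. Copies were placed by words of 5 starts, with further placements kept where they accounted for 5 or more additional starts, and loci merged within 100 kb. Called windows used a background averaged after 3 rounds of removing calls, giving minimum counts of 12 and 7. The steps were tested on simulated data, in which most planted changes of small size were not called.

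Tracts named one by one are the 10 with the highest mean RPM, the 5 widest, the 3 with the highest and 3 with the lowest library ratio and those with no copy; others are named as examples chosen after their values were seen. The members and lists were chosen with earlier results of these data known. The comparison of 1-site reads beside tract and copy, the steps and the segments were added after the data were seen. No mm8 sequence or gene annotation was used here, so no gene names or sequences are given.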

Additional observations from a re-analysis of the deposited data

Results flagged for a closer look

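The report covers chromosomes 1 to 19. On chromosome X another 28 windows passed the same limits on reads, with 1338 distinct 2-site reads in library 1 and 1342 in library 2, and none did on chromosome Y. They were noted because they lie outside the chromosomes described, and the libraries hold no control sample to set them against.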

How the results depend on the processing

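No paired analysis was possible because both libraries belong to 1 group. The 243 tracts became 703 with at least 10 reads and 80 with at least 40, and from 381 to 462 with 1 library alone. The other 9 settings gave 183 to 297. Tracts with a copy numbered 186 to 237 under other settings, against 229. The correlation of 0.76 became 0.77 with a pseudocount of 1 RPM and 0.90 over all windows of the spans. The 292 windows differing between the libraries became 501 with scaling by 1-site nuclear reads, 547 with all alignments kept and 545 at a threshold of 0.05. With no filter 271 were called, 1 higher in library 1 and 270 in library 2, where the scaling rested on the reads of all windows. The share of called windows beside tracts was 15.9% with library 2 alone and 8.67% with library 1 alone, where all windows had 9.02% and 3.41%. The median over tracts of the highest over the median window, averaged over the libraries, was 1.82 with all alignments kept and 1.73 with no shift. For tracts with a copy outside, denser surroundings of the copy held for 119 to 121 of 140 with other flank lengths or 1 library, and for 109 of 130 with each copy neighbourhood used once. Those 2 comparisons and their alternatives were chosen after seeing the data. Among the 31 named tracts the mean level stayed within 1 SD in 82 of 93 alternatives on shift and repeated starts. With all alignments kept it went from 466 to 906 RPM at chr12:55631501-55661000 and from 497 to 537 RPM at chr17:14698001-14759000. With 1 library alone it is that library's value. Counting reads listed 2 times in a tract once gave 248, 233 and 23.0 RPM at the named tracts of chromosomes 17, 12 and 3 that hold their own copy. Causes of these changes were not tested. At 20 reads a tract's ratio is known only within about a factor of 2 either way.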
